A study of Mus musculus with 6 samples.

Results

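The genes described here are the ATF4 program of amino acid supply and tRNA charging, a set of 54 named genes taken by symbol from the array's probe annotation. It holds stress regulators, amino acid synthesis enzymes, amino acid transporters, cytosolic aminoacyl-tRNA synthetases and a few secreted factors. Of the 54 genes, 50 were matched to 51 probes, and Eif4ebp1, Eif2s1, Pycr1 and Gdf15 were not analysed here. Of the 50, 49 passed the filter on dim probes and were tested among 17390 genes. Slc7a1, a transporter of cationic amino acids, exceeded the detection limit on 1 of 6 arrays and was not tested.

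The samples were cultures of oligodendrocyte precursor cells, the glial progenitors that form myelin-making oligodendrocytes, from forebrains of E15.5 embryos of the Jcl:ICR mouse stock. Cells of the Chd7 KD group (3 arrays) were infected with a retrovirus that knocks down Chd7, and cells of the Control group (3 arrays) with a control retrovirus. Both groups were kept in FGF2 and PDGF-AA and harvested 3 days after infection, and each sample was read on its own one-colour array. The targeting sequence of the virus and the share of infected cells are not given in the sources used here, and neither is whether the replicates were separate cultures. The p-values therefore reflect the scatter among these 3 and 3 samples, part or all of which may be technical.

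Atf4 is a transcription factor whose translation increases when a stress-sensing kinase phosphorylates the initiation factor eIF2, as happens when amino acids run short, when proteins misfold in the endoplasmic reticulum or when viral RNA is sensed. It pairs with C/EBP and related factors and switches on genes that import amino acids, make them and charge them onto tRNA, and also genes that damp the response or, when stress lasts, promote cell death. In oligodendrocytes the pathway is known from disorders of myelin and of the eIF2 exchange factor.

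Values below are log2 intensities after background correction and quantile normalization, and a fold change is Chd7 KD over Control. Chd7 itself, a chromatin remodeller gene, read 8.54, 8.44 and 8.48 on the KD arrays, against 9.44, 9.20 and 9.47 on the Control arrays (log2 fold change -0.88, SE 0.0855, limma adjusted p = 0.00112), and its other probe also fell (-0.48). The raw median signal per array was 83.4 to 89.4, the blank spots averaged 58.9 to 61.9, and 87.0% to 89.8% of probes exceeded the detection limit. All 5 precursor markers (Pdgfra, Cspg4, Olig1, Olig2 and Sox10) were above the limit on every array, and 4 of the 5 fell, though the call of Olig2 was lost with median scaling, with the authors' values, without KD replicate 2 or 3 (adjusted p up to 0.0665) and without both arrays numbered 1 (0.0512). Their summed linear signal was 8996 to 10227 in KD and 11562 to 13756 in Control. The summed signal of 5 astrocyte markers was 4648 to 5248 in KD and 3414 to 4245 in Control, but most of it came from Gja1 (log2 fold change 0.44, overlapping arrays). No astrocyte marker passed the test, 3 of the 5 were positive, and their median log2 fold change was 0.05. The summed signal of 5 neuronal markers was 361 to 508 in KD and 562 to 679 in Control. Among these Dcx, the brightest, fell by 0.71, while 3 of the 5 were positive and the median was 0.00093. Among microglial markers Itgam, and among vascular markers Pecam1 and Cldn5, were below the limit on most arrays. In these bulk samples a change in the share of a cell type and a change in RNA per cell cannot be told apart, and the part of these markers in the results below was not tested.

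Of the 49 genes tested, 15 rose in Chd7 KD cells and none fell at an adjusted p below 0.05 in limma, adjusted over all genes. Over all genes, 4.49% rose and 5.15% fell (9.64% in either direction), while 30.6% of the 49 rose. None of the 49 had a lower KD mean at an unadjusted p below 0.05, and 28 had a higher one. Those that rose were Atf4, Atf5, Atf3, Ddit3 and Chac1 among the regulators, Asns, Mthfd2, Aldh18a1, Cth and Cbs among the enzymes, the transporter genes Slc7a3 and Slc7a5, and the synthetase genes Nars, Tars and Cars. The median log2 fold change of the 49 was 0.18, against 0.00077 over all genes tested, and 43 were positive, against 50.6% of all genes. For 30 of the 49 every KD array exceeded every Control array, and for none was the order reversed, where 14.5% of all genes had this order and 15.4% the opposite one.

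With the replicate number as a block, 23 of the 49 rose (7.38% of all genes did) and none fell (7.44% of all genes did). The 15 were all among them, and the further 8 were Nupr1, Psph, Got1, Gpt2, Slc3a2, Slc1a4, Yars and Stc2. In the authors' processed values 9 of the 49 rose (1.94% of all genes) and none fell (4.06% of all genes). These 9, Atf4, Atf5, Ddit3, Chac1, Asns, Mthfd2, Cth, Cbs and Slc7a3, were also the 9 that kept their call whichever single array was dropped.

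**Figure D1:**
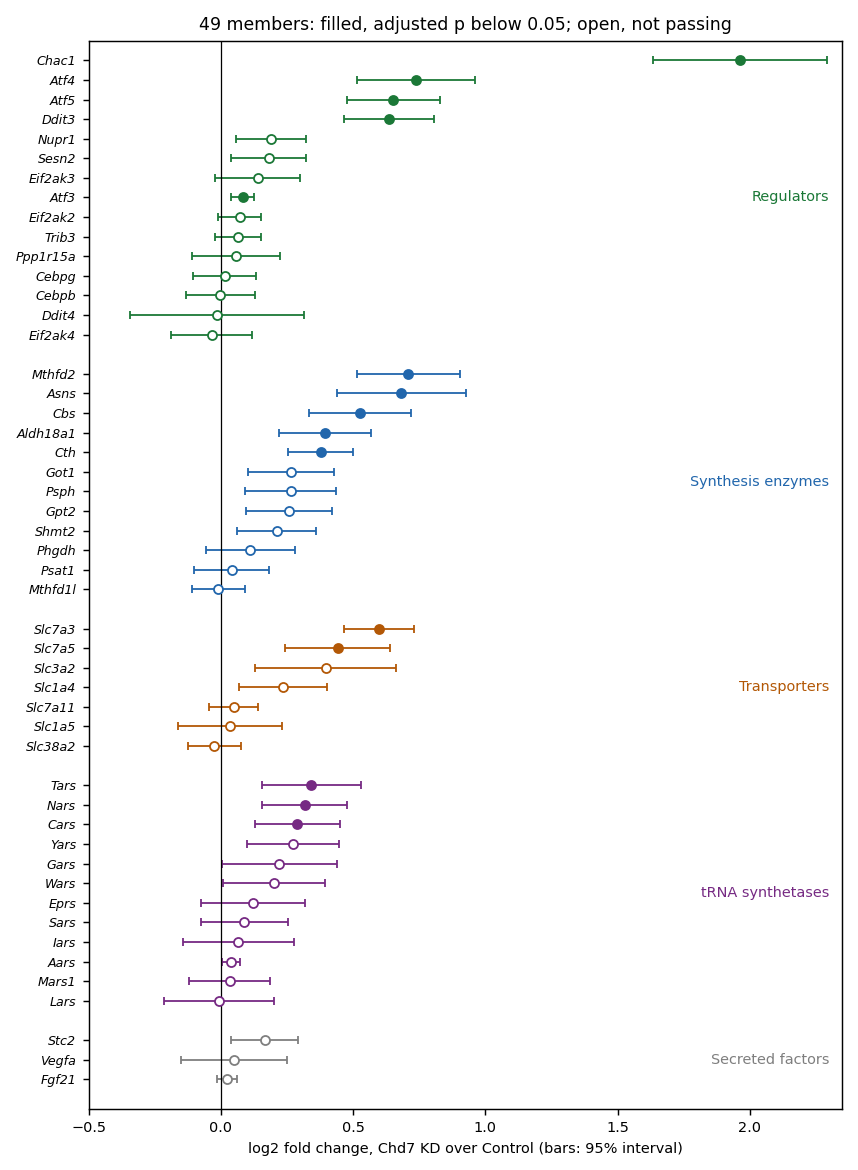
Log2 fold change of Chd7 KD over Control (x axis) with its 95% interval for the 49 tested genes, by class, where filled points passed the test at an adjusted p below 0.05 and open points did not. The 15 filled points all lie right of 0, Chac1 at 1.96 stands apart from the rest, and the most negative open point is Eif2ak4 at -0.03.

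The promoters of several of these genes hold a C/EBP-ATF response element, the composite site bound by Atf4 with a C/EBP partner. Stretches around it are shown for the 4 genes that rose and carried it and for Slc7a11, which carried it at 2 places and did not pass. The sequences are from RefSeq (GRCm38.p6) and run 5′ to 3′ toward the gene, with capitals marking the element on either strand.
Chac1: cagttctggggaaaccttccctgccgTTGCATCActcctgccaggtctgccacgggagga
Asns: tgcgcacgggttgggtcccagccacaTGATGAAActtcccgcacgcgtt
Atf3: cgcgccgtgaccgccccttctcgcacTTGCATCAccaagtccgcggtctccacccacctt
Tars: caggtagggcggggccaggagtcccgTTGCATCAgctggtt
Slc7a11: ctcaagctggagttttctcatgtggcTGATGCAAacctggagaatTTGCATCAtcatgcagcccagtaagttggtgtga
The Chac1 stretch lies at chr2:119351023-119351082 (plus strand), that of Asns at chr6:7693210-7693258 (minus strand) and that of Atf3 at chr1:191183410-191183469 (minus strand). The Tars stretch lies at chr15:11399659-11399699 and that of Slc7a11 at chr3:50443627-50443705, both on the minus strand. Counted from the annotated start, the element spans -193 to -186 in Chac1, -23 to -16 in Asns, -110 to -103 in Atf3 and -15 to -8 in Tars. In Slc7a11 it spans -66 to -59 and, on the opposite strand, -47 to -40.

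The search used TGATGNAA on both strands in the 250 bases before and 50 after each start, and the palindromic cAMP response element TGACGTCA was searched in the same windows. Of the 41 tested genes of the program with a promoter in the table, 14 (34.1%) held TGATGNAA, against 3.34% of 13638 tested genes and 3.97% of all 32851 promoters in the table. The genes were chosen as an Atf4 program, so this share describes the choice and not a result of the knockdown. It was 4 of 10 among those that rose and 10 of 31 (32.3%) among those that did not pass. Over all genes that rose, 22 of 594 (3.7%) held it, against 3.32% of the other tested genes. TGACGTCA was found in the promoter of 1 of the 41, Ppp1r15a, against 2.94% of tested genes, and no promoter of the 41 held both elements. A match is a run of letters and does not show binding. No promoter was in the table for Cth, Slc7a3, Slc7a5, Slc1a5, Wars, Nars, Lars and Cars.

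**Figure D2:**
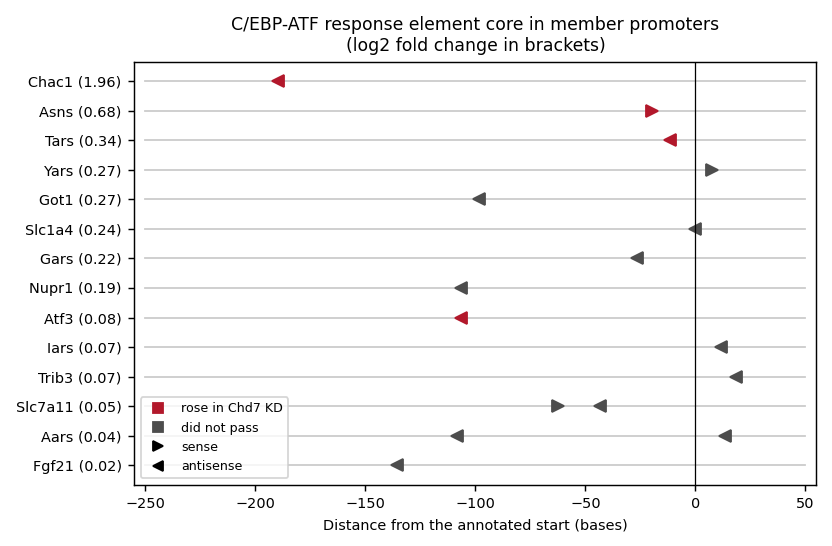
Position of the response element core (triangles, pointing right for the sense strand and left for the antisense strand) relative to the annotated start (x axis, bases) in the 14 promoters that hold it, ordered from top by log2 fold change, which is given in brackets. Red marks the 4 genes that rose. Elements lie between -193 and 22, and the ones in genes that rose are spread over that range upstream of the start.

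Of the 15 regulators tested 5 rose (33.3%, against 4.49% of all genes), with a median log2 fold change of 0.08. Atf4, the factor that gives the program its name, read 11.45, 11.20 and 11.10 on the KD arrays, against 10.56, 10.55 and 10.43 on the Control arrays. Each KD array thus exceeded each Control array, by 0.74 on the log2 scale on average (SE 0.0985, adjusted p = 0.00322), a 1.67-fold level. Atf5, a related factor that is also controlled at translation, read 8.25, 8.20 and 8.15 in KD and 7.42, 7.70 and 7.53 in Control (log2 fold change 0.65, SE 0.0777, adjusted p = 0.00208). Ddit3, which encodes CHOP, a partner of Atf4 in prolonged stress, read 8.82, 8.61 and 8.64 in KD and 7.99, 8.12 and 8.04 in Control (log2 fold change 0.64, SE 0.0752, adjusted p = 0.00201). All 3 factors rose by similar amounts, with no overlap of the groups.

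Chac1, which degrades glutathione and lies downstream of Atf4 and CHOP, had the largest increase of the 49, and of all 17390 genes tested, in this fit. It read 9.01, 8.52 and 8.57 in KD, against 6.61, 7.002 and 6.61 in Control. This was 3.9-fold or 1.96 on the log2 scale (SE 0.145, adjusted p = 4.2e-04). The gap between the lowest KD array and the highest Control array was wider than the range within either group. Atf3, a stress-induced repressor, was dim and rose by 0.08 (SE 0.0189, adjusted p = 0.0278), reading 5.91, 5.89 and 5.91 in KD and 5.81, 5.80 and 5.85 in Control. In the authors' values these are intensities of 6, 5 and 6 units in KD and 3, 3 and 4 units in Control, a log2 fold change of 0.63 that did not pass (adjusted p = 0.0574). Its call was also lost with median scaling, without the variance trend, with gain set as a block, without Control replicate 1 or 2 and without any 1 of the KD arrays (adjusted p up to 0.0968), and without both arrays numbered 1 (0.16).

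**Figure D3:**
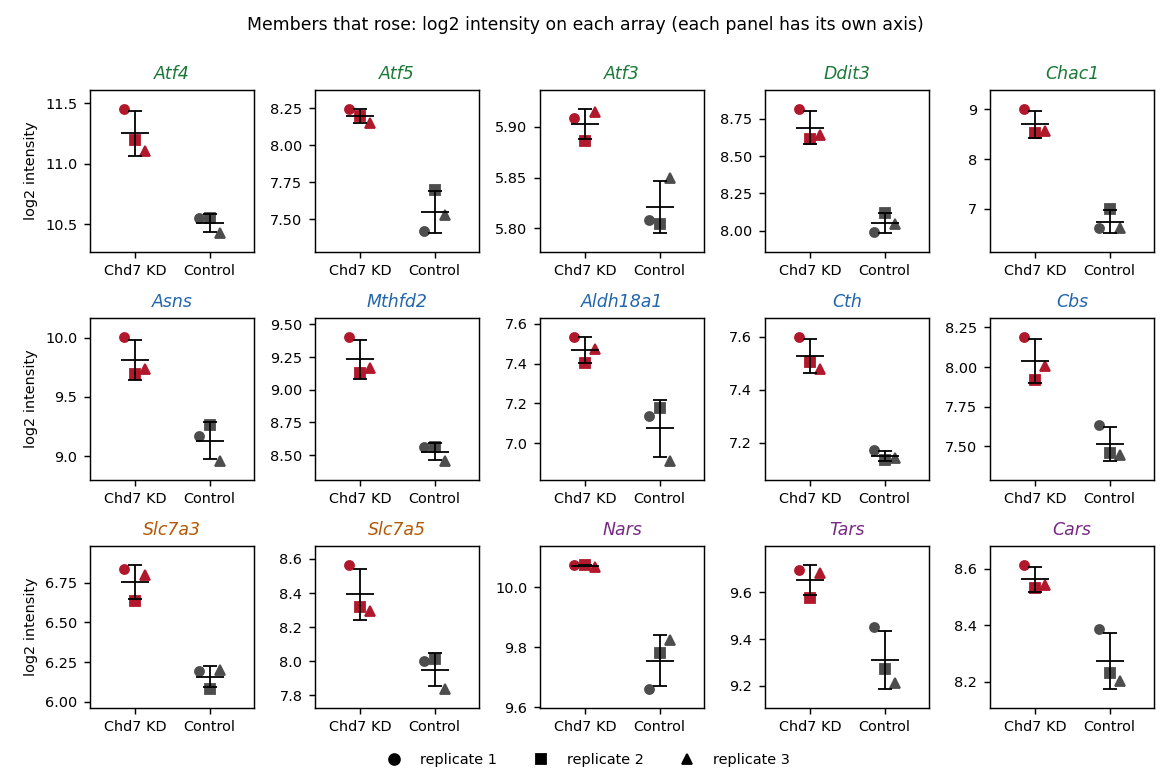
Log2 intensity (y axis, separate for each panel) on each array of the 15 genes that rose, with Chd7 KD on the left and Control on the right, symbols for the replicate number, and bars for the mean and SD of 3 arrays. No panel has overlapping groups, and KD replicate 1 is the highest of the 6 arrays in 14 of the 15.

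The other regulators did not pass. Nupr1, a stress-induced chromatin protein gene, read 6.26, 6.05 and 5.99 in KD and 5.90, 5.91 and 5.93 in Control (log2 fold change 0.19, adjusted p = 0.0789, and 0.0258 with the replicate block). The value rested on single arrays: Nupr1 stood at 0.11 without KD replicate 1, and at 0.25 without KD replicate 3, where it passed (adjusted p = 0.0383). Its change was 0.88 in the authors' values, where the signal was 19, 11 and 8 units in KD and 6 units on each Control array (adjusted p = 0.112). Sesn2, which restrains mTORC1 when leucine is short, read 8.90, 8.92 and 8.98 in KD and 8.73, 8.78 and 8.74 in Control, without overlap (log2 fold change 0.18, adjusted p = 0.108). Trib3, an inhibitor of Atf4 and Akt that is itself an Atf4 target, was dim and stood at 0.07 (95% interval -0.02 to 0.15). In the authors' values it stood at 0.22 (adjusted p = 0.367). The C/EBP partner genes Cebpb and Cebpg stood at -0.0020 (-0.13 to 0.13) and 0.01 (-0.10 to 0.13), so each group's arrays spread over the other's. Ddit4, an inhibitor of mTORC1, stood at -0.01 with a wide interval of -0.34 to 0.31, since its Control arrays read 9.44, 10.06 and 9.91. Ppp1r15a (GADD34), which recruits the phosphatase that reverses the eIF2 mark, stood at 0.06 (-0.11 to 0.22).

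The eIF2 kinases, which sense the stresses that lead to Atf4 translation, gave no call at the RNA level. Eif2ak3 (PERK, the endoplasmic reticulum sensor) read 7.98, 7.73 and 7.89 in KD and 7.75, 7.72 and 7.72 in Control (log2 fold change 0.14, adjusted p = 0.275). Eif2ak2 (PKR, the sensor of double-stranded RNA) was dim and stood at 0.07 (adjusted p = 0.265) with groups that did not overlap. In the authors' values Eif2ak2 stood at 0.15 (adjusted p = 0.317). Eif2ak4 (GCN2, the sensor of uncharged tRNA) stood at -0.03 (adjusted p = 0.805). Kinase activity and eIF2 phosphorylation were not measured. The 13 other genes of eIF2, its exchange factor and their regulators had a median of -0.04. Of them 1 fell (7.69%, against 5.15% of all genes) and none rose. That gene, Eif2s2, the beta subunit of eIF2, fell by 0.29 (adjusted p = 0.0405). It did not pass with median scaling, cyclic loess, gain set as a block or the authors' values, or without Control replicate 2 or 3 or any 1 of the KD arrays (adjusted p up to 0.138), or without both arrays numbered 1 (0.0591).

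Amino acid synthesis enzymes had 5 of 12 genes higher (41.7%, against 4.49% of all genes) and a median of 0.26. For 10 of the 12 every KD array exceeded every Control array, against 14.5% of all genes. Mthfd2, the mitochondrial enzyme of one-carbon folate metabolism, read 9.41, 9.13 and 9.17 in KD, against 8.57, 8.56 and 8.46 in Control (log2 fold change 0.71, SE 0.0861, adjusted p = 0.00218). Asns, asparagine synthetase, read 10.01, 9.69 and 9.74 in KD, against 9.17, 9.26 and 8.96 in Control (log2 fold change 0.68, SE 0.108, adjusted p = 0.0061). Both stood 1.6-fold or more above Control, and for both KD replicate 1 was the highest array.

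Cysteine is made from homocysteine by Cbs and Cth in turn, and both genes rose. Cbs read 8.19, 7.92 and 8.004 in KD and 7.64, 7.46 and 7.45 in Control (log2 fold change 0.52, SE 0.0852, adjusted p = 0.00695). Cth read 7.60, 7.51 and 7.48 in KD and 7.17, 7.14 and 7.14 in Control (log2 fold change 0.38, SE 0.0545, adjusted p = 0.00442). The Control arrays of Cth lay within 0.04 of each other. Aldh18a1, which starts proline synthesis from glutamate, read 7.53, 7.40 and 7.47 in KD and 7.13, 7.18 and 6.91 in Control (log2 fold change 0.39, SE 0.077, adjusted p = 0.0152). It did not pass in the authors' values (0.0591), without KD replicate 1 (0.0635) or without both arrays numbered 1 (0.0606).

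None of the serine pathway genes passed. Phgdh, the entry enzyme, read 10.28, 10.40 and 10.32 in KD and 10.15, 10.31 and 10.21 in Control (log2 fold change 0.11, 95% interval -0.06 to 0.28), and Psat1, the next enzyme, stood at 0.04 (-0.10 to 0.18). Psph, the last enzyme, read 10.62, 10.62 and 10.63 in KD and 10.41, 10.24 and 10.44 in Control (log2 fold change 0.26, adjusted p = 0.0629, and 0.041 with the replicate block). Shmt2, which passes the serine carbon to mitochondrial folate, stood at 0.21 (adjusted p = 0.0812), and Mthfd1l, a later mitochondrial folate enzyme, at -0.0092 (-0.11 to 0.09). The transaminase genes Got1 and Gpt2 stood at 0.27 and 0.26, with no overlap, just outside the threshold (adjusted p = 0.0507 and 0.0544, and 0.0396 and 0.0227 with the block). Of 12 further genes of folate, serine and glycine metabolism 1 rose (8.33%, against 4.49% of all genes) and none fell. It was Aldh1l2, a mitochondrial folate enzyme (log2 fold change 0.25, SE 0.0393, adjusted p = 0.00588), which read 6.52, 6.395 and 6.47 in KD and 6.19, 6.20 and 6.24 in Control.

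Amino acid transporters had 2 of 7 tested genes higher (28.6%, against 4.49% of all genes), with a median of 0.24. Slc7a3, a carrier of arginine and lysine, read 6.84, 6.63 and 6.80 in KD, against 6.19, 6.08 and 6.20 in Control (log2 fold change 0.60, SE 0.0586, adjusted p = 0.00118). The gene is dim, and in the authors' values the signal was 49, 35 and 44 units in KD and 16, 12 and 16 units in Control, which is 1.48 on the log2 scale (adjusted p = 0.00851). With an offset of 16 in place of 50 and all else kept, Slc7a3 stood at 0.99. It passed in both of these fits. Slc7a5, the light chain of the LAT1 carrier of leucine and other large neutral amino acids, read 8.57, 8.32 and 8.30 in KD and 8.004, 8.01 and 7.84 in Control (log2 fold change 0.44, SE 0.0883, adjusted p = 0.0164). The call was lost without Control replicate 3 (0.0547) and in the authors' values (0.0715).

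Slc3a2, the heavy chain that pairs with Slc7a5 and Slc7a11, read 10.63, 10.22 and 10.33 in KD and 10.04, 10.13 and 9.83 in Control, a log2 fold change of 0.40 that did not pass (adjusted p = 0.0695) except with the block (0.0235). Slc1a4, a carrier of serine and alanine, stood at 0.24 (adjusted p = 0.0789, and 0.0366 with the block). Slc7a11, the light chain of the cystine and glutamate exchanger, showed no difference beyond its spread on either probe. Its brighter probe read 6.34, 6.31 and 6.26 in KD and 6.25, 6.32 and 6.19 in Control (log2 fold change 0.05, 95% interval -0.05 to 0.14), and the dimmer one gave 0.0030. Both probes were dim, and the brighter one stood at 0.13 in the authors' values (adjusted p = 0.687). Slc1a5 and Slc38a2, carriers of glutamine and other neutral amino acids, stood at 0.03 (-0.16 to 0.23) and -0.02 (-0.12 to 0.08). Of 16 other amino acid transporter genes tested, 1 rose and 1 fell, with a median of -0.04. Each is 6.25%, where 4.49% of all genes rose and 5.15% fell. Slc6a9, the glycine transporter, rose by 1.16 (SE 0.195, adjusted p = 0.00785), with 11.15, 10.87 and 10.56 in KD and 9.95, 9.87 and 9.26 in Control. Slc1a1, a neuronal type glutamate carrier, fell by 0.20 (adjusted p = 0.0318), a call lost in the authors' values, without the variance trend, with the mean of its probes, and without KD replicate 1 or 2 or Control replicate 2 or 3 (adjusted p up to 0.105), and without both arrays numbered 1 (0.0886).

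**Figure D4:**
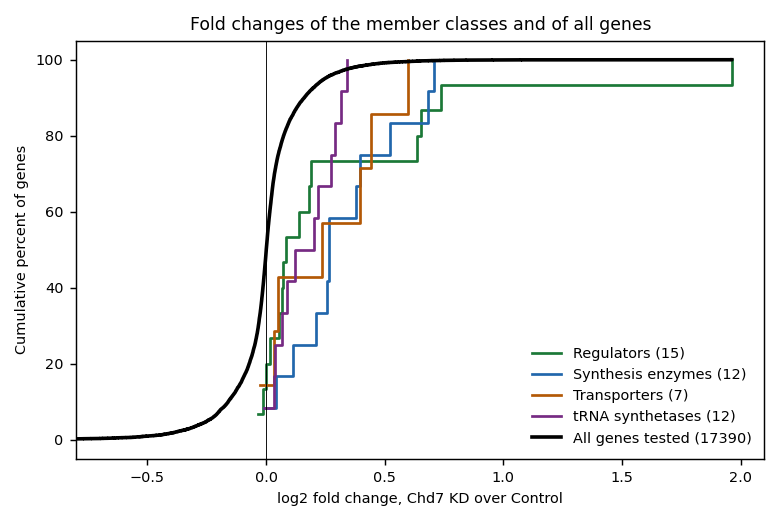
Cumulative percent of genes (y axis) at or below a given log2 fold change of Chd7 KD over Control (x axis) for 4 classes of the program and for all 17390 genes tested (black). Where they cross 50%, the 4 class curves lie to the right of the black curve, at 0.08 for regulators, 0.26 for synthesis enzymes, 0.24 for transporters and 0.16 for synthetases.

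Cytosolic tRNA synthetases, which join each amino acid to its tRNA, had 3 of 12 genes higher (25%, against 4.49% of all genes). Of the 12, 11 had positive fold changes, against 50.6% of all genes, and the median was 0.16. The changes were small, between -0.0069 and 0.34. Tars, for threonine, read 9.70, 9.58 and 9.68 in KD and 9.45, 9.27 and 9.21 in Control (log2 fold change 0.34, SE 0.0825, adjusted p = 0.0332). Nars, for asparagine, read 10.07 on each of the KD arrays and 9.66, 9.78 and 9.82 on the Control arrays (log2 fold change 0.32, SE 0.0711, adjusted p = 0.0254). Cars, for cysteine, read 8.61, 8.53 and 8.54 in KD and 8.39, 8.23 and 8.20 in Control (log2 fold change 0.29, SE 0.0707, adjusted p = 0.0354). None of the 3 passed with median scaling, in the authors' values, with gain set as a block, without Control replicate 2 or without any 1 of the KD arrays, with adjusted p up to 0.113 for Tars, 0.0851 for Nars and 0.12 for Cars. Nars was also lost without Control replicate 1 and without both arrays numbered 1 (0.0943), and Tars and Cars without Control replicate 3.

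Yars, for tyrosine, read 10.37, 10.18 and 10.17 in KD and 9.96, 9.97 and 9.97 in Control (log2 fold change 0.27, adjusted p = 0.057, and 0.0375 with the block). Gars and Wars, for glycine and tryptophan, stood at 0.22 and 0.20, both without overlap of the groups (adjusted p = 0.198 and 0.183). Aars, for alanine, was dim and stood at 0.04, also without overlap, and at 0.35 in the authors' values (adjusted p = 0.323). The synthetase genes for glutamate and proline (Eprs), serine (Sars), isoleucine (Iars), methionine (Mars1) and leucine (Lars) had overlapping groups and stood at 0.12, 0.09, 0.07, 0.03 and -0.0069. Of 10 other cytosolic synthetase and synthetase complex genes 1 rose (10%, against 4.49% of all genes) and none fell, with a median of -0.01. It was Qars, for glutamine (log2 fold change 0.47, SE 0.0849, adjusted p = 0.0111), with 9.96, 9.77 and 9.81 in KD and 9.28, 9.36 and 9.50 in Control, and its call was lost with median scaling, with the authors' values (0.083) and when both arrays numbered 1 were dropped (0.0562). Of 16 mitochondrial synthetase genes 1 rose (6.25%, against 4.49% of all genes) and none fell, with a median of -0.06. That gene, Mars2, rose by 0.26 (adjusted p = 0.0144) and was lost without KD replicate 1 or 3 (adjusted p up to 0.0572) and without both arrays numbered 1 (0.0836).

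None of the 3 secreted factors tested passed. Stc2, a stress-induced glycoprotein hormone gene, read 6.34, 6.45 and 6.19 in KD and 6.19, 6.14 and 6.15 in Control (log2 fold change 0.17, adjusted p = 0.104, and 0.0377 with the block). Stc2 stood at 0.11 without KD replicate 2, and at 0.23 without KD replicate 3, where it passed (adjusted p = 0.0229). In the authors' values its change was 0.51 (adjusted p = 0.144). Vegfa, the vascular growth factor gene, was dim and read 6.38, 6.36 and 6.12 in KD and 6.35, 6.31 and 6.05 in Control (log2 fold change 0.05, 95% interval -0.15 to 0.25). In the authors' values Vegfa stood at 0.18 (adjusted p = 0.81). Fgf21, a metabolic hormone gene, was dim and read 5.86, 5.87 and 5.88 in KD and 5.87, 5.84 and 5.84 in Control (log2 fold change 0.02, 95% interval -0.02 to 0.06). For both, the KD and Control arrays overlapped.

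Of 20 further genes reported as Atf4 targets, 4 rose (20%, against 4.49% of all genes) and none fell, with a median of 0.10. They were Pck2, mitochondrial phosphoenolpyruvate carboxykinase, with 8.71, 8.34 and 8.37 in KD and 7.66, 7.67 and 7.89 in Control (log2 fold change 0.73, SE 0.107, adjusted p = 0.0046), the lipoprotein receptor gene Vldlr (0.69, adjusted p = 0.00732), the cell cycle inhibitor gene Cdkn1a (0.61, adjusted p = 0.00765) and Jdp2, an AP-1 family repressor gene (0.25, adjusted p = 0.00646). Without both arrays numbered 1, Vldlr (0.0537) and Cdkn1a (0.0518) did not pass. Cdkn1a is also a p53 target, and the remaining 16 genes did not pass.

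The size of the changes differed between replicates. KD replicate 1 was the highest of the 6 arrays for 14 of the 15 genes that rose, and KD replicate 3 for Atf3. As the groups of the 15 did not overlap, the highest array had to be a KD array. The share of KD replicate 1 over all genes was not computed. The median difference from the Control mean over the 49 genes was 0.18, 0.16 and 0.13 in KD replicates 1 to 3. Set against the Control array of the same number, 42, 41 and 44 of the 49 genes were higher in KD at numbers 1, 2 and 3. The medians over the 49 were 0.20, 0.14 and 0.17. For 30 of the 49 the groups did not overlap, so these 30 were higher at each number by construction. In the main fit 50.6% of all genes were positive, and their share by number was not computed. Without KD replicate 1, 10 of the 49 rose, and 355 of all 17390 genes did. Without both arrays numbered 1, 12 of the 49 rose, and 378 of all genes did.

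The scanner's gain slopes in the file headers split the arrays into a set of KD replicate 2 with Control replicates 1 and 2 and a set of KD replicates 1 and 3 with Control replicate 3. Within the first set the log2 fold changes of the 15 genes that rose were 0.08 to 1.72, and within the second 0.06 to 2.19. Their positive sign was fixed beforehand, because every KD array of these genes exceeded every Control array. Each set has 1 group with a single array, whose variance was taken from the other group, and there 1 and 2 of the 49 passed. With gain set as a block 11 of the 49 rose, and 538 of all 17390 genes did.

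**Figure D5:**
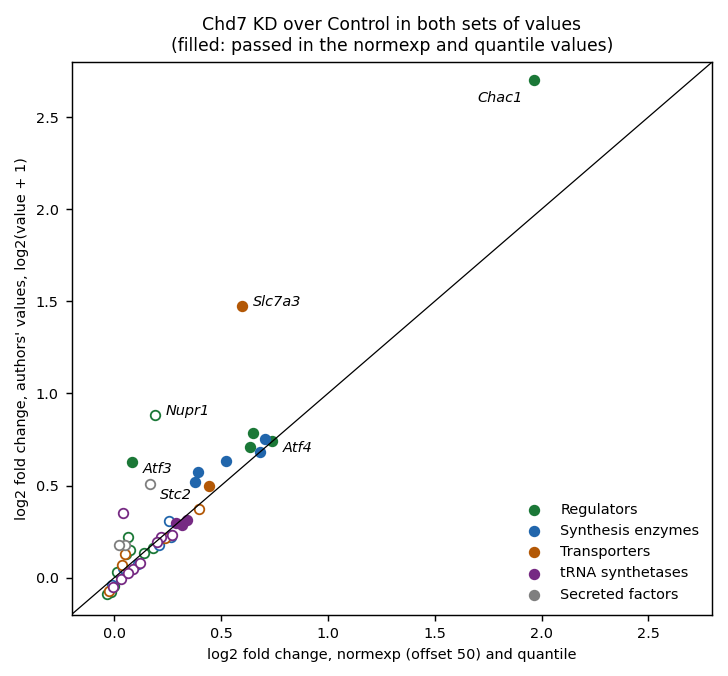
Log2 fold change of Chd7 KD over Control for the 49 genes from normexp and quantile values (x axis) and from the authors' processed values as log2(value + 1) (y axis), colored by class and filled where the gene passed on the x axis, with the line of equality. Most genes lie near the line, while Chac1 (1.96 and 2.70), Slc7a3 (0.60 and 1.48), Nupr1 (0.19 and 0.88), Atf3 (0.08 and 0.63) and Stc2 (0.17 and 0.51) lie above it.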

How the data were processed

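Total RNA of 3 Chd7 KD and 3 Control samples was amplified, coupled to Cy5 and hybridised to TORAY arrays, per the labels' protocols. The deposited intensity is each spot's median, combined from scans at 3 gains by a least-squares fit, per the file headers. The authors also deposited processed intensity values, which equalled the spot signal less about the blank level, times a factor for each array and rounded (99.995% of residuals within 0.6), which was recovered from the values and is not stated in the sources used here. Its missing entries were set to 0.

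Spot medians underwent normexp correction with offset 50 and no local background, then quantile normalization, and were tested with limma 3.58.1 in R 4.3.3 (lmFit, eBayes with a trend, two-sided, Benjamini-Hochberg over 17390 genes, each gene by its brightest probe). The offset shrinks changes of dim genes. Probes entered the test if at least 3 arrays exceeded a limit of 2 SD over the blank mean. Gene symbols came from the platform annotation. The number of arrays limits the precision. The procedure was tested on simulated data. Figures were drawn with matplotlib 3.10.9.

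The genes and lists were chosen with earlier results of these data known, so their counts are descriptions and no list was tested as a set. All genes of the program are named, with values on every array for those that passed, Atf4 and at least 3 of each class by smallest p, and further genes as examples after their values were seen. Of each other list up to 4 genes that passed are named.

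The labels number the samples of each group 1 to 3. Same-numbered arrays deviated together from their group means (r = 0.362, 0.382 and 0.228). In the other pairings r was -0.322 to -0.0118. Deviations cancel out within a group, so these negative values follow in part from the positive ones. The main fit used the group only and left any pairing out. The replicate number was used as a block in an alternative fit, because of these values and not because of the labels. Alternatives were other background corrections, scalings, filters and variance models, array weights, the replicate block, the gain set, and leaving out arrays. The values within gain sets were added after the data were seen.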

Additional observations from a re-analysis of the deposited data

How the results depend on the processing

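The direction of all 15 genes that rose held under each alternative run, and no gene of the program fell under any. As the groups of these 15 did not overlap, fits on the same normalized values could not change their direction. Only other background corrections, other scalings and the authors' values could have done so. The number of the 49 that rose was 23 with the replicate block, 9 in the authors' values, 1 and 2 within the gain sets with the lower and the higher slope, and 10 to 13 when 1 array was left out. Over all genes, counted in either direction, 2577 passed with the replicate block, 1677 in the main fit and 1043 in the authors' values. Of these, 1284, 781 and 337 rose (32.3% in the authors' values, against 46.6% in the main fit). The count in either direction was 800 without both arrays numbered 1, 750 to 1453 when 1 array was left out, and 39 within each gain set. The replicate block ended no call among the 15. Chd7 stood at -0.88 (adjusted p = 0.101) and -0.95 (0.0591) within the gain sets, where 2 arrays stood against 1, and at -0.97 to -0.83 when 1 array was left out. Alternatives that ended single calls are given beside those genes, apart from the fits within gain sets, and the cause was not tested. Some genes outside the 15 passed in a part of the 13 alternatives that kept all arrays. Got1 passed in 6 of these, Psph in 3, Gpt2 and Yars in 2 each, with the replicate block among them. Sesn2 and Shmt2 passed in 1 each, the fit without the variance trend. Median scaling and the authors' values moved the median of all genes by under 0.01. Signal near the blank level limits Atf3, Aars, Nupr1, Stc2, Fgf21, Trib3, Vegfa, Slc7a3 and both probes of Slc7a11. Eif2ak2, Slc38a2, Slc1a5, Mthfd1l, Cebpg and Ppp1r15a were also dim. Because the offset shrinks changes of dim genes, the intervals of these and of Trib3, Vegfa, Slc7a11 and Fgf21 do not exclude a change.

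Genes that passed in no fit named here changed sign around 0. With gain set as a block Cebpb stood at 0.0065, Lars at 0.0019, Mthfd1l at 0.0096 and Slc1a5 at -0.0451. With cyclic loess Cebpb stood at 0.0042 and Lars at 0.0048, and in the authors' values Mars1 at -0.0047. Without both arrays numbered 1, Lars stood at 0.0732, Mthfd1l at 0.017, Slc1a5 at -0.0126 and Slc38a2 at 0.0241. Within the set with the lower slope Cebpb stood at 0.0325, Ddit4 at 0.15, Eif2ak3 at -0.0024, Ppp1r15a at -0.0695, Sars at -0.0049 and Slc1a5 at -0.0185, and within the other set Lars at 0.21, Mars1 at -0.0372, Mthfd1l at 0.0772 and Slc1a5 at -0.0718. When 1 array was left out, the ranges were -0.0316 to 0.0274 for Cebpb, -0.0322 to 0.0397 for Cebpg, -0.20 to 0.11 for Ddit4, -0.0046 to 0.14 for Iars, -0.0871 to 0.0533 for Lars, -0.0506 to 0.0218 for Mthfd1l, -0.0288 to 0.12 for Ppp1r15a, -0.0382 to 0.12 for Slc1a5, -0.0477 to 0.0052 for Slc38a2 and -0.0429 to 0.14 for Vegfa.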

Other observations

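Of 10 tested genes of the endoplasmic reticulum arm of the stress response 2 fell and none rose, with a median of -0.04. Over all genes tested 5.15% fell and 4.49% rose. Xbp1, a transcription factor of this arm, read 8.27, 8.38 and 8.52 in KD and 8.997, 8.79 and 8.68 in Control (log2 fold change -0.43, limma adjusted p = 0.027). Sdf2l1, a chaperone cofactor gene, stood at -0.37 (adjusted p = 0.0137). Of the 10 genes 3 were positive, among them Atf6, another transcription factor of the arm, at 0.07 (adjusted p = 0.157). Xbp1 did not pass with gain set as a block or without KD replicate 1 or 2 or Control replicate 1 or 2 (adjusted p up to 0.103), and Sdf2l1 not without KD replicate 1 or 2 (adjusted p up to 0.0578). Without both arrays numbered 1 neither Xbp1 (0.11) nor Sdf2l1 (0.0777) passed. Hspa5, the main chaperone of that compartment, stood at -0.03.

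Of 17 genes of amino acid sensing by mTORC1, 1 fell (5.88%, against 5.15% of all genes) and none rose, with a median of -0.02. It was Sesn3, a relative of the leucine sensor Sesn2, with 7.61, 7.68 and 7.66 in KD and 7.82, 7.90 and 7.89 in Control (log2 fold change -0.22, adjusted p = 0.0379). The call was lost with median scaling, with gain set as a block, without Control replicate 2 or 3 and without any 1 of the KD arrays (adjusted p up to 0.128), and without both arrays numbered 1 (0.0979). Of 10 other tested genes of amino acid synthesis none passed in limma, with a median of 0.08.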
